A study of Mus musculus with 2 samples.

Results

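Cxcl9-expressing reticular cells are marrow stromal cells with transcripts of Cxcl9, a chemokine induced by interferon-gamma that attracts CXCR3-bearing T and natural killer cells. They were chosen among the Cxcl12-GFP+ cells of 2 mouse femur libraries as reticular cells with at least 2 raw Cxcl9 UMIs, a UMI being the molecular tag that counts 1 captured transcript once. A barcode counted as a cell from 1000 detected genes upward, if mitochondrial transcripts made up no more than 15% of its UMIs. A cell counted as reticular where Adipoq, Lpl and Hp together reached 10 UMIs per 10000 and exceeded the sum of Alpl, Wif1, Kcnk2 and Spp1, with at most 1 UMI each of Ptprc and Cdh5. By this rule there were 226 Cxcl9-expressing cells in Mouse #1 and 514 in Mouse #2, or 740 of 4386 reticular cells and of 7332 cells in all. Each was compared with the reticular cells of the same mouse in which no Cxcl9 UMI was counted, 1134 in Mouse #1 and 1893 in Mouse #2 (Cxcl9-zero cells). The level of Cxcl9 chose the cells and is given below as a description only.

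Both mice belonged to 1 group and no treatment was contrasted. They carried Cxcl12(GFP/+), Cxcl12-iCreER and R26R(tdTomato/+), received tamoxifen on postnatal day 21 and were analyzed on postnatal day 28. Cxcl12-iCreER is a bacterial artificial chromosome transgene in which the Cxcl12 locus drives a tamoxifen-dependent recombinase, and tdTomato is transcribed in cells where it has acted and in their descendants. The femurs lacked the distal growth plate and the proximal end, and the cells were released by enzymes and sorted on GFP. One protocol label names a tdTomato+ sort, while the cell label names GFP+ cells.

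Reticular cells of the marrow are perivascular stromal cells with long processes that supply Cxcl12 and stem cell factor to blood-forming cells. Cxcl9 and its neighbor Cxcl10 are both ligands of CXCR3. Interferon-gamma acts through its receptor and JAK kinases mainly on genes with GAS elements, whereas type I interferons act mainly on genes with ISRE elements. Guanylate-binding proteins (Gbp genes) and immunity-related GTPases (Irgm1, Igtp, Iigp1) are best known as interferon-gamma targets, and Isg15, the Ifit genes and Mx1 as type I interferon targets, although the sets overlap.

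The libraries held 54940400 and 88790688 UMIs. Cxcl9-expressing cells were deeper than Cxcl9-zero cells, with medians of 15472.5 and 13736 UMIs against 12179 and 10743, and had a lower median mitochondrial share, 3.29% and 3.42% against 3.75% and 3.95%. Of all cell barcodes, 7 occurred in both libraries, among them 1 Cxcl9-expressing cell of Mouse #1. The label was checked on Gas6, Cp, Gdpd2, Agt and Esm1, reticular markers that the rule did not use. In UMIs per 1000000 UMIs of the summed cells (CPM), Gas6 stood at 3476 and 2778 in Cxcl9-expressing cells, against 1045 and 945 in preosteoblast-type cells (the same gate reversed) and 162 and 195 in blood cells. Esm1 stood at 1091 and 1088 CPM against 38.5 and 39.5 CPM and 45.8 and 58.6 CPM. Each of the 5 was higher in Cxcl9-expressing than in preosteoblast-type, endothelial and blood cells of both mice, and the smallest gap was that of Cp in Mouse #1, with 597 against 496 CPM in preosteoblast-type cells.

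Cxcl9 and Cxcl10 lie beside each other on chromosome 5 (mm10), Cxcl9 at 92321347 to 92328079 and Cxcl10 at 92346638 to 92348889, both on the minus strand with 20810 bases between their starts. The 250 bases before the start are shown for this pair and for an interferon-gamma type and a type I type target that rose with them, Igtp (chromosome 11, 58199556 to 58207591, plus strand) and Isg15 (chromosome 4, 156199424 to 156200818, minus strand). They are RefSeq sequences of GRCm38.p6, read 5′ to 3′ on the strand of the gene, at chr5:92328080-92328329, chr5:92348890-92349139, chr11:58199306-58199555 and chr4:156200819-156201068. Capitals mark matches on either strand to GAS (TTCNNNGAA) or to ISRE, searched as GAAA followed by any 2 bases and a second GAAA.
Cxcl9: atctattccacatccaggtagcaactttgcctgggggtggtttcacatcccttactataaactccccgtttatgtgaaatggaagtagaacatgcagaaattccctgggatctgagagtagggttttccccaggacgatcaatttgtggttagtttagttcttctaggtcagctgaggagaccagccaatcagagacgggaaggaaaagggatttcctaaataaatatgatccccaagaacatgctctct
Cxcl10: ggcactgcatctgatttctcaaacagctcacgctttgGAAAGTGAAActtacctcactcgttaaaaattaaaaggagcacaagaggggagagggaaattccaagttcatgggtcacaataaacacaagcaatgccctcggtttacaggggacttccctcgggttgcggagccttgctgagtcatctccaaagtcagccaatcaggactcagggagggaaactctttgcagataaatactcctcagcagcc
Igtp: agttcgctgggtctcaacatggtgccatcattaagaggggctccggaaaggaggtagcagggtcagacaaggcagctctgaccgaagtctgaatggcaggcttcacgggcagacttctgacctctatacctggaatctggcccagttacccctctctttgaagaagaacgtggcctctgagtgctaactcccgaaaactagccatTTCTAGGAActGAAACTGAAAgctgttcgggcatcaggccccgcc
Isg15: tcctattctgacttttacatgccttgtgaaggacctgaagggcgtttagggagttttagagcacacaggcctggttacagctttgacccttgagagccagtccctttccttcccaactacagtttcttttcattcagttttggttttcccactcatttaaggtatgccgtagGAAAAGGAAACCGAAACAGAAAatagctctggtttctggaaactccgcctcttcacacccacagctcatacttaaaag

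No match to either motif was found in the Cxcl9 window. Cxcl10 had 1 ISRE match whose first base lay at -213 from the start, Igtp had a GAS match at -45 and an ISRE match at -34, and Isg15 had 3 overlapping ISRE matches beginning at -78. Other genes were searched in the same way but are not printed. Gbp2 held an ISRE match at -59, Ifit3 held ISRE matches at -156 and -122, and Tap1 and Ifi44 held neither motif. Among the risen genes searched singly, a GAS match was found in Igtp alone, while Irf1 held a GAS match at -90. Of all 32851 windows in the table, 7.02% held a GAS and 2.98% an ISRE match. A match or its absence is a description of these letters only.

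Cxcl9 was unevenly spread over reticular cells. Their share among reticular cells was 14.8% (95% Wilson interval from 13.1 to 16.7%) for Mouse #1. For Mouse #2 it was 18.0% (from 16.6 to 19.4%), and both averaged 16.4% ± 2.2 (SD, n = 2). The median Cxcl9-expressing cell had 3 Cxcl9 UMIs in Mouse #1 and 4 in Mouse #2, while the highest had 283 and 648. Just inside the threshold lay 88 and 145 cells with 2 UMIs, and just outside it 167 and 452 cells with 1 UMI. Cells with 20 or more UMIs numbered 19 and 80, or 1.24% and 2.80% of reticular cells, and held 61.7% and 74.3% of all reticular Cxcl9 UMIs. In these 2 libraries most of the transcript thus came from a small fraction of the cells.

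**Figure D1:**
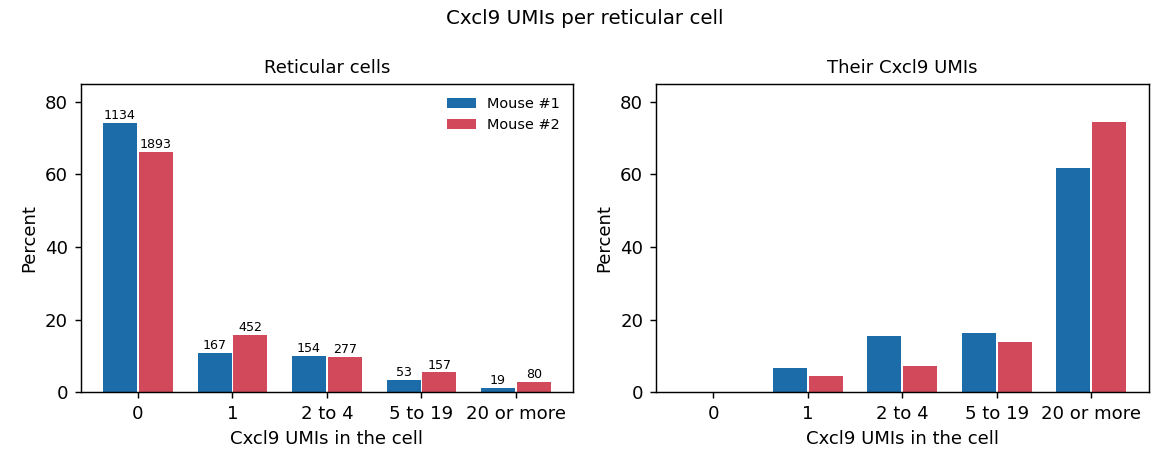
Percent of reticular cells (left, with the number of cells above each bar) and percent of their Cxcl9 UMIs (right) by the number of Cxcl9 UMIs in the cell, for Mouse #1 and Mouse #2. Cells with 20 or more UMIs are 1.24% and 2.80% of reticular cells and hold 61.7% and 74.3% of the Cxcl9 UMIs.

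Reticular cells had the highest Cxcl9 level of the classes, with 120 and 273 CPM. Preosteoblast-type cells had 46.8 and 77.6 CPM, endothelial cells (2 or more Cdh5 UMIs) 45.5 and 36.3 CPM, and blood cells (2 or more Ptprc UMIs) 9.24 and 46.4 CPM. A few cells made these other levels: 1 preosteoblast-type cell held 217 of the 302 UMIs of its class in Mouse #1, and 1 blood cell held 195 of 347 in Mouse #2. With each cell thinned to 5000 UMIs, a Cxcl9 UMI was found in 15.8% (interval 13.99 to 17.8%) and 22.2% (20.6 to 23.8%) of reticular cells. The same share was 1.92% and 4.10% of preosteoblast-type, 4.48% and 3.05% of endothelial, and 0.552% and 2.47% of blood cells. The reticular share lay above all of these beyond counting error in both mice. Unthinned, it was 25.7% and 33.8% of reticular against 2.55% and 4.09% of blood cells, at median depths of 12793 and 11655 against 11556.5 and 10074 UMIs. Thinning left out 129 and 243 reticular and 70 and 92 blood cells. Free RNA was also present, since barcodes of 1 to 100 UMIs held Cxcl9 at 65.0 and 102 CPM, and its part in single cells with 1 or 2 UMIs was not tested.

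**Figure D2:**
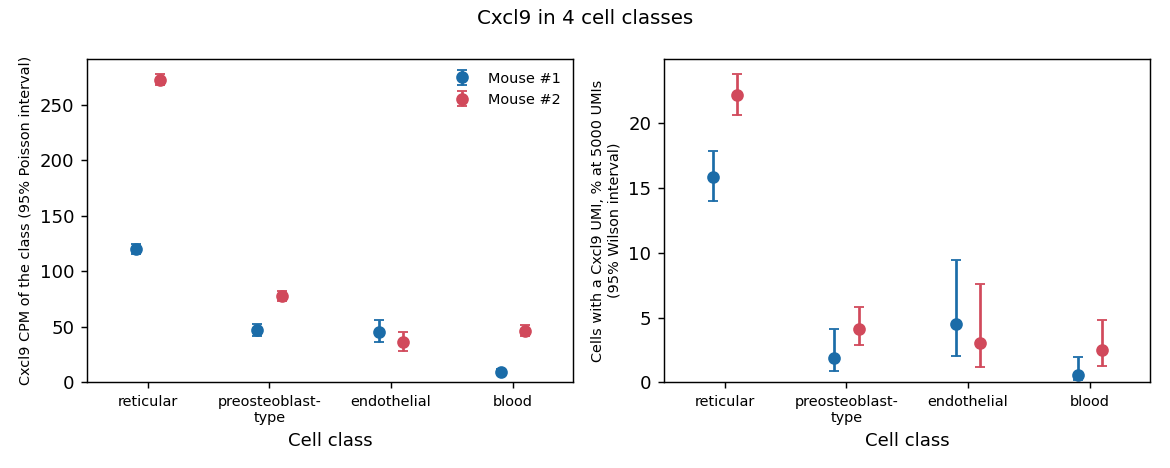
Cxcl9 level (left, CPM of all UMIs of the class with a 95% Poisson interval) and share of cells with a Cxcl9 UMI after thinning to 5000 UMIs per cell (right, with a 95% Wilson interval), each for reticular, preosteoblast-type, endothelial and blood cells of Mouse #1 and Mouse #2. Both intervals cover counting error only, and in both mice the reticular values lie highest.

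How Cxcl9-expressing cells differ from the reticular cells around them was asked of counts summed per mouse, 2 sums from each animal. Genes of the interferon response rose in Cxcl9-expressing cells, among them Cxcl10, the GTPases Igtp and Iigp1 and the antiviral genes Ifit3 and Isg15. Osteogenic genes such as Postn and Limch1 and macrophage genes such as C1qa fell. The reticular program, Cxcl12 and Kitl gave no call in this fit. These calls rest on the fit that keeps the mouse as a block, which is used below unless stated otherwise because both sums of a pair came from 1 animal. The edgeR quasi-likelihood test was used with Benjamini-Hochberg adjustment over 12701 genes. An adjusted p under 0.05 was reached by 164 genes (1.29%), 87 higher (0.685%) and 77 lower (0.606%). Of the 164, 156 had a ratio of the same sign in both mice. A gene with 0 UMIs in a sum, such as C1qa, has no such ratio and is not counted among the 156. Without the block, the design planned as the main one, the same test called 0 genes (0.0%), with 630 at an unadjusted p under 0.05. DESeq2 without the block called 44 (0.346%), of which 30 were higher (0.236%) and 14 lower (0.11%). With the block a gene has 1 residual degree of freedom, so that its error is mostly borrowed from other genes. The 10 genes of the rule are not counted. The median log2 fold change of all tested genes was -0.010.

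**Figure D3:**
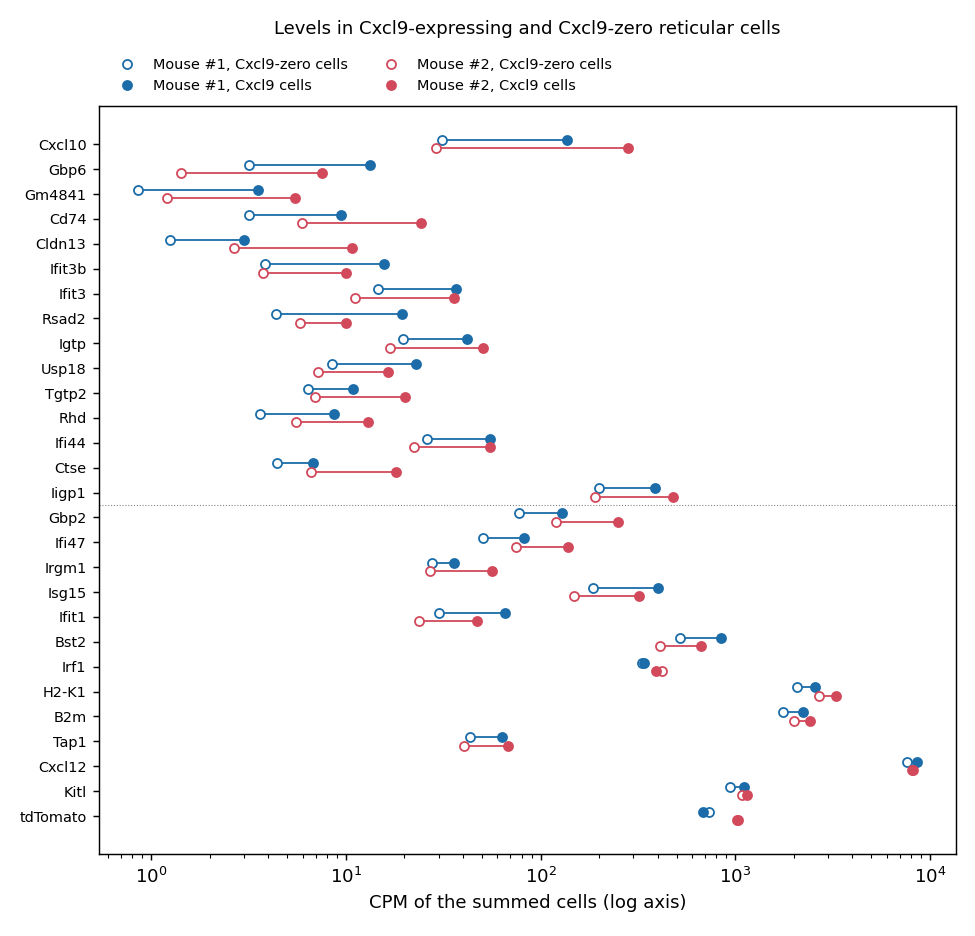
CPM of summed Cxcl9-zero cells (open) and Cxcl9-expressing cells (filled) in each mouse on a log axis. Above the dotted line are the 15 genes with the largest rise by the rule for named genes, below it other genes of the text. Cxcl10 moves from 31.1 to 137 CPM in Mouse #1 and from 29.1 to 280 CPM in Mouse #2, whereas Irf1, Cxcl12 and tdTomato hardly move.

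Cxcl10, the other CXCR3 ligand measured, had the largest rise of the genes named by rule. It stood at 137 CPM in Cxcl9-expressing and 31.1 CPM in Cxcl9-zero cells of Mouse #1 and at 280 and 29.1 CPM in Mouse #2. On the log2 scale the difference came to 2.77 ± 0.20 (SE, edgeR adjusted p 8.9e-05 with the block and 0.40 without). A Cxcl10 UMI was present in 45 of 226 and 125 of 514 Cxcl9-expressing cells. Its counts were concentrated, with 21.7% and 13.2% of them in the top cell and 45.8% and 38.5% in the top 5. At 5000 UMIs per cell, 13.96% (10.02 to 19.1%) and 17.5% (14.4 to 21.1%) of Cxcl9-expressing cells had a Cxcl10 UMI, against 5.59% (4.34 to 7.18%) and 6.18% (5.13 to 7.44%) of Cxcl9-zero cells. The difference exceeded counting error in both mice, although most Cxcl9-expressing cells had no detectable Cxcl10.

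The receptor and the inducing cytokines were sought in all classes. Cxcr3 had 0 UMIs in reticular cells and 21 and 12 UMIs in blood cells, spread over 11 and 8 cells. Ifng, which encodes interferon-gamma, had 0 UMIs in Cxcl9-expressing cells, which allows up to 0.814 and 0.375 CPM (3 counts). Blood cells held 12 Ifng UMIs in 6 cells of Mouse #1 and 0 in Mouse #2, which allows up to 0.401 CPM there. The only Ifng UMIs of Mouse #2 were 1 in a preosteoblast-type cell and 1 in a cell of none of the classes. Ifnb1, a type I interferon, had 0 UMIs in every class of both mice. The cells had been sorted on GFP, so these levels do not describe the whole marrow.

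Interferon-inducible GTPases, enzymes that act on intracellular pathogens and their vacuoles, rose in Cxcl9-expressing cells. Of 17 list genes in the files, 13 passed the expression filter and 10 of these rose, none fell, against 0.685% of all tested genes called higher. The lists were chosen with earlier results of these data known, so this contrast and those for the lists below carry no test. The median log2 fold change was 0.81. Iigp1 stood at 389 against 199 CPM in Mouse #1 and at 479 against 191 CPM in Mouse #2 (log2 fold change 1.17 ± 0.086, edgeR adjusted p 1.2e-04 with the block and 0.26 without). It was detected in 191 of 226 and 416 of 514 Cxcl9-expressing cells, and the top cell held 4.60% and 5.50% of its UMIs. The shallower Cxcl9-zero cells had Iigp1 UMIs in 744 of 1134 and 1218 of 1893. Its level was uneven, with 319 and 336 CPM in cells with 2 to 4 Cxcl9 UMIs. In cells with 20 or more it was 754 and 930 CPM. How widely the cells shared the rise was not tested. Igtp stood at 42.0 against 19.7 CPM and 50.4 against 16.9 CPM (1.39 ± 0.12, edgeR adjusted p 2.9e-04 and 0.25). Gbp2 stood at 129 against 77.1 CPM and 251 against 120 CPM (0.94 ± 0.083, edgeR adjusted p 0.000365 and 0.93). For each of these genes, both mice were higher in Cxcl9-expressing cells. Gbp3, Gbp5, Gbp7, Irgm1, Irgm2, Tgtp2 and Ifi47 also rose, by 0.49 to 1.26. Gbp4 (2.31, adjusted p 0.145), Gvin1 (0.50, 0.644) and F830016B08Rik (0.36, 0.0825) did not pass. The rule for genes outside the lists added a Gbp6 feature (ENSMUSG00000104713, 2.24), 1 of 2 IDs of that symbol, and Gm4841 (2.15), both at under 14 CPM. Tgtp2, Gbp6 and the Irg and Gbp families have close copies among which reads could be split, so single values are uncertain.

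Antiviral genes rose alongside. All 24 measured genes of this list had a positive log2 fold change, with a median of 0.90, against 6037 of all 12701 tested genes. Of the 24, 16 rose while none fell, against 0.685% of all tested genes called higher. Isg15, a ubiquitin-like modifier, stood at 399 against 185 CPM in Mouse #1 and 320 against 149 CPM in Mouse #2 (1.13 ± 0.064, edgeR adjusted p 1.7e-05 with the block and 0.40 without). It had UMIs in 186 of 226 and 365 of 514 Cxcl9-expressing cells, and the top cell held 3.74% and 5.43%. Ifit3, which binds viral RNA together with other Ifit proteins, stood at 36.6 against 14.6 CPM and 35.7 against 11.1 CPM (1.54 ± 0.12, edgeR adjusted p 1.8e-04 and 0.25). Its copy Ifit3b (1.72) and the related Ifit1 (1.07) rose too. Ifi44 (1.22), the ISG15 protease Usp18 (1.32), the antiviral enzyme Rsad2 (1.43), the virion tether Bst2 (0.72) and the transcription factor Irf7 (0.93) also passed. For Rsad2, the top cell held 50% of the counts in Mouse #1. Mx1 rose by 3.55 ± 0.64 (edgeR adjusted p 0.022) at 1.90 against 0.198 CPM and 2.50 against 0.178 CPM. Its UMIs lay in only 6 and 7 Cxcl9-expressing cells, the top 5 of which held 85.7% and 90.0%. The RNA sensors Ifih1 (0.40, adjusted p 0.124) and Ddx58 (0.40, 0.0516) and Ifit2 (0.48, 0.470) missed the threshold.

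Antigen presentation on MHC class I rose by less. Of 19 genes, 11 rose and none fell, with a median of 0.36, against 0.685% of all tested genes called higher. B2m, the light chain of all class I molecules, stood at 2219 against 1762 CPM in Mouse #1 and 2410 against 2008 CPM in Mouse #2 (0.32 ± 0.057, edgeR adjusted p 0.023 with the block and 0.93 without). H2-K1 (0.32), H2-D1 (0.31), H2-Q4, H2-Q7, H2-T22 and H2-T23 (0.69) rose likewise, though the H2 genes are close copies. Tap1, a subunit of the peptide transporter, stood at 63.5 against 43.3 CPM and 68.4 against 40.6 CPM (0.68 ± 0.083, edgeR adjusted p 0.0020 and 0.40). The immunoproteasome subunits Psmb8 (0.47), Psmb9 (0.44) and Psmb10 (0.44) rose, while Tap2 (0.36, adjusted p 0.0517), Tapbp (0.20, 0.24) and the class I transactivator Nlrc5 (0.37, 0.43) were not called.

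Of MHC class II, only Cd74, the invariant chain, was called among 6 tested genes, against 0.685% of all tested genes called higher. It stood at 9.49 against 3.17 CPM and 24.4 against 5.97 CPM (1.90 ± 0.19, edgeR adjusted p 6.5e-04 with the block and 0.93 without). Few cells carried it: 13 of 226 and 28 of 514 Cxcl9-expressing cells had a UMI, and the top 5 of them held 77.1% and 83.1% of the counts. H2-Ab1 (1.78, adjusted p 0.0681), H2-Aa (1.29, 0.308) and H2-Eb1 (1.10, 0.197) were not called, although H2-Ab1 was (2.33, adjusted p 0.0015) once cells with markers of other types were left out. Ciita, the class II transactivator, had 1 UMI or less in each sum and was not tested.

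Receptors of the interferon pathways and some of their regulators were also measured. The receptor subunits Ifngr1 (0.16), Ifngr2 (0.019), Ifnar1 (-0.076) and Ifnar2 (0.22) gave no call. Irf1, a transcription factor induced early by interferon-gamma, stood at 341 against 331 CPM and 391 against 420 CPM (-0.010 ± 0.068, edgeR adjusted p 0.99), so that the mice went opposite ways. Irf9, a transcription factor of type I signalling, and Socs1, a feedback inhibitor, also missed the threshold.

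**Figure D4:**
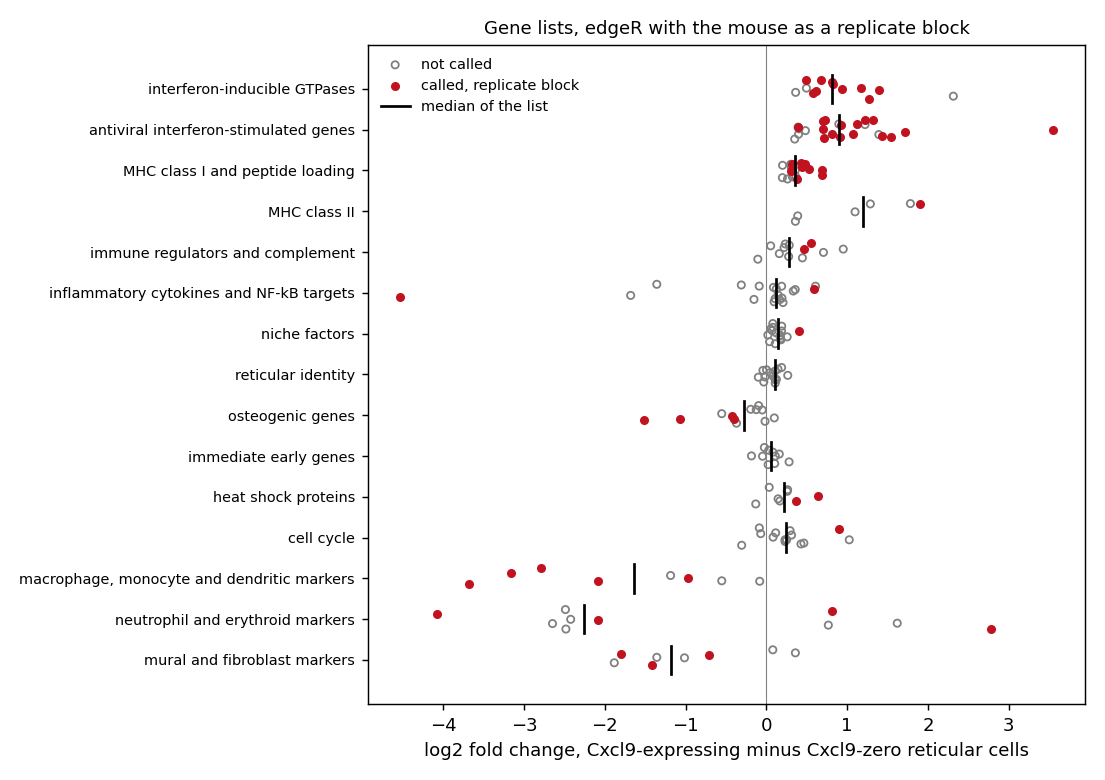
Log2 fold change of Cxcl9-expressing minus Cxcl9-zero reticular cells for the tested genes of 15 lists, from edgeR with the mouse as a block. Red points had an adjusted p under 0.05, grey rings did not, and the black bar is the median of the list. The GTPase, antiviral and class I lists lie to the right of 0, with medians of 0.81, 0.90 and 0.36, while niche factors and reticular identity lie near 0, with medians of 0.14 and 0.11.

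The number of complement and inflammatory genes called varied with the cells compared, as did the share of all tested genes called higher. That share was 0.685% with all cells, 2.5% without cells bearing markers of other types and 1.05% against depth-matched Cxcl9-zero cells. With all cells, 0.606% were called lower. Of 12 immune regulators and complement genes, C3 (0.47 ± 0.083, edgeR adjusted p 0.020) and Cfb (0.55 ± 0.088, 0.011) rose, both components of the alternative pathway, and Cd274, which encodes PD-L1, had 0.95 ± 0.43 (0.46). With cells bearing markers of other types left out, 8 of the 12 rose, adding C2 (0.57), Il18bp (0.69), C1s1 (0.32), C1ra (0.30), Lgals9 (0.27) and Serping1 (0.21), and 4 rose against depth-matched Cxcl9-zero cells. Ido1 and Pdcd1lg2 had 1 UMI or less in each sum. Of 19 inflammatory genes, the neutrophil attractant Cxcl1 rose (0.59 ± 0.091, edgeR adjusted p 0.0088) and Saa3 fell (-4.53 ± 0.89, 0.038), the latter from 4.62 and 1.16 CPM to 0 and 0.125 CPM. Ccl2 had 418 against 402 CPM in Mouse #1 and 1238 against 838 CPM in Mouse #2 (0.33 ± 0.10, edgeR adjusted p 0.22), Il6 had 0.19 ± 0.13 (0.65), and Nfkbia, a target of NF-kB, had 0.11 ± 0.069 (0.63). With cells bearing markers of other types left out, 5 of the 19 rose, namely Cxcl1 (0.51), Ccl2 (0.43), Ccl7 (0.28), Ptx3 (0.25) and Vcam1 (0.16). Ccl5 was below the filter, at 0 CPM in Cxcl9-expressing cells of the first mouse and 46.4 CPM in those of the second, where 1 cell held 94.6% of its UMIs.

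Niche output and reticular identity gave 1 call among 31 list entries, against 1.29% of all tested genes called in either direction. Cxcl12 itself stood at 8540 against 7609 CPM and 8180 against 8105 CPM (0.11 ± 0.049, edgeR adjusted p 0.45). Kitl, which encodes stem cell factor, had 0.18 ± 0.067 (0.35), Il7 0.17 ± 0.086 (0.51) and Lepr 0.19 ± 0.069 (0.32). Il34, a ligand of the CSF1 receptor, rose by 0.41 ± 0.081 (edgeR adjusted p 0.040). None of the 15 identity genes was called, and their differences ran from -0.099 for Pdgfrb to 0.26 for Pparg. The 3 reporter features gave no call either when all Cxcl9-expressing cells were compared. tdTomato stood at 681 against 729 CPM and 1020 against 1033 CPM (-0.038 ± 0.065, edgeR adjusted p 0.90), and at 5000 UMIs per cell it was found in 43.7% and 58.8% of Cxcl9-expressing against 45.9% and 55.4% of Cxcl9-zero cells, within counting error. In the fit without cells bearing markers of other types, described below, which called 4.02% of all tested genes, small differences were called as well. Among them were Cxcl12 (0.088 ± 0.010, edgeR adjusted p 1e-09), Kitl (0.13, 0.044), eGFP (0.17, 1.3e-22) and 4 of the 15 identity genes. These p-values take most of their error from other genes and do not measure agreement between the 2 mice. Over all Cxcl9-expressing cells, eGFP stood at 12804 against 10769 CPM in Mouse #1 and 11643 against 11029 CPM in Mouse #2.

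Osteogenic genes leaned the other way. Of 12 genes 4 fell and none rose (median -0.28), against 0.606% of all tested genes called lower. Limch1, an actin-binding protein, stood at 132 against 179 CPM and 135 against 178 CPM (-0.39 ± 0.064, edgeR adjusted p 0.012 with the block and 0.59 without). Postn, a matrix protein of osteoblast precursors, stood at 10.6 against 20.3 CPM and 12.4 against 28.0 CPM (-1.07 ± 0.14, edgeR adjusted p 0.0025 and 0.69). Mmp13, a collagenase, fell by 0.43 on the log2 scale. Bglap, which encodes osteocalcin, also fell (-1.51 ± 0.18), but 1 Cxcl9-zero cell of Mouse #2 held 48.4% of the counts there. All 4 were called again, at -0.47, -0.75, -0.50 and -0.53 in this order, without cells bearing markers of other types. Both classes had passed the same gate on preosteoblast genes, with medians of 0.784 and 0.965 summed UMIs per 10000 of Alpl, Wif1, Kcnk2 and Spp1 in Cxcl9-expressing and 1.30 and 1.16 in Cxcl9-zero cells.

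Stress and cell cycle genes were examined because dissociation and division could mark a subset of cells. With the block, 1.29% of all tested genes were called, 4.02% without cells bearing markers of other types and 2.31% against depth-matched Cxcl9-zero cells. None of 10 immediate early genes was called with the block, but Fos (0.11), Junb (0.12) and Atf3 (0.32) rose once cells with markers of other types were left out, and Fos (0.43) and Jun (0.24) rose against depth-matched Cxcl9-zero cells. Of 8 heat shock genes, Hspb1 rose by 0.64 ± 0.065 (edgeR adjusted p 6.6e-04) and Hspa1a by 0.37 ± 0.066 (0.022), and neither was called when cells with markers of other types were left out (0.25, adjusted p 0.14, and 0.17, 0.21). Ube2c, which acts in mitosis, was called among 14 cell cycle genes (0.89 ± 0.094, edgeR adjusted p 7.8e-04), with 96.3% and 80.1% of its counts in 5 Cxcl9-expressing cells of each mouse. Without cells bearing markers of other types it had -0.37 (adjusted p 0.34) and 4 genes of this list fell.

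Markers of other cell types were present in both classes and moved with them. Of 8 tested macrophage, monocyte and dendritic markers 5 fell (C1qa, C1qb, C1qc, Tyrobp and Cd14), against 0.606% of all tested genes called lower. All 13 genes of the list summed to 43.4 against 260 CPM in Mouse #1 and 158 against 205 CPM in Mouse #2. Adgre1 and Flt3 were at 0 in Cxcl9-expressing cells. Of 3 tested lymphoid markers Nkg7 fell (sums 35.8 against 56.1 and 13.2 against 15.99 CPM), with Cd3e at 0 in Cxcl9-expressing cells. Of 10 neutrophil and erythroid markers Elane and Mpo fell and Hbb-bs and Car1 rose, with sums of 5164 against 14446 CPM in Mouse #1 and 9299 against 6452 CPM in Mouse #2. Of 8 mural and fibroblast markers Acta2, S100a4 and Ly6a fell (sums 41.8 against 112 and 67.5 against 96.2 CPM), and none of 3 endothelial markers was called (sums 17.6 against 18.3 and 18.4 against 19.96 CPM).

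These signals sat in few cells. In Cxcl9-zero cells C1qa was found in 9 and 13 cells, the top 5 of which held 92.7% and 95.5% of it, and 1 Cxcl9-expressing cell of Mouse #1 held 91.9% of Hbb-bs there. Most of the genes with the largest falls by the rule for named genes are known from blood cells: Il1b (-4.67), Elane (-4.08), C1qa (-3.68), Samsn1 (-3.26), C1qc (-3.16), F630028O10Rik (-3.14, an antisense gene whose reads may come from the other strand), Trem3 (-2.94) and Ms4a3 (-2.86). Without cells bearing markers of other types Elane had -0.67 (adjusted p 0.45) and the other 7 fell below the expression filter. For C1qa and C1qc this was fixed in advance, since both were among the markers by which cells were left out. Among the genes with the largest rise by the rule for named genes were Cldn13 (1.80), Rhd (1.25) and Ctse (1.20), known from red cell precursors. Their counts in Mouse #1 came from 1 or 2 cells, and each turned negative once cells with other markers were left out (-3.83, -2.29 and -5.12).

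The interferon genes were also called without such cells. The 14 markers of other types were Ptprc, Cdh5, C1qa, C1qb, C1qc, Tyrobp, Fcer1g, Cd3e, Nkg7, Cd79a, Ms4a1, Pecam1, Emcn and Kdr. When cells with a UMI of any of these blood or endothelial markers were left out, 161 and 378 Cxcl9-expressing cells remained beside 849 and 1437 Cxcl9-zero cells. That fit with the block called 300 of 12001 genes higher (2.5%) and 182 lower (1.52%), 482 in all (4.02%), and 75 of the 87 genes called higher above were among them. In it 11 of 12 GTPases, 18 of 24 antiviral and 14 of 19 class I genes rose, and Cxcl10 had 3.07 ± 0.081. With 1 Cxcl9-zero cell of the nearest depth per member, so that the median depths were 15472.5 against 15469 and 13736 against 13716 UMIs, 11 GTPases, 19 antiviral and 12 class I genes rose among 123 genes called higher (1.05%) and 148 lower (1.26%) of 11728 (2.31% in all). Of the 87 genes, 73 were called again.

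Levels were next followed along the number of Cxcl9 UMIs per cell. Cxcl10 stood at 31.1, 59.5, 89.1, 192 and 362 CPM in cells of Mouse #1 with 0, 1, 2 to 4, 5 to 19 and 20 or more Cxcl9 UMIs, and at 29.1, 88.9, 82.0, 276 and 887 CPM in Mouse #2. Igtp climbed from 19.7 to 101 CPM and from 16.9 to 116 CPM between the end bins, Gbp2 from 77.1 to 328 CPM and from 120 to 519 CPM, and Tap1 from 43.3 to 144 CPM and from 40.6 to 121 CPM. These genes were highest in the top bin in both mice. Among the antiviral genes, Ifit1 peaked in the bin of 5 to 19 UMIs at 89.8 and 54.7 CPM and had 52.1 and 37.2 CPM in the top bin. Isg15 had 462 CPM at 5 to 19 UMIs and 319 CPM in the top bin of Mouse #1, and 345 and 454 CPM in Mouse #2. Irf1 stood between 313 and 466 CPM in Mouse #1 and between 352 and 448 CPM in Mouse #2, and Cxcl12 between 7609 and 9019 and between 8055 and 8614 CPM. Neither went up from bin to bin, although Irf1 was highest in the top bin of both mice.

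**Figure D5:**
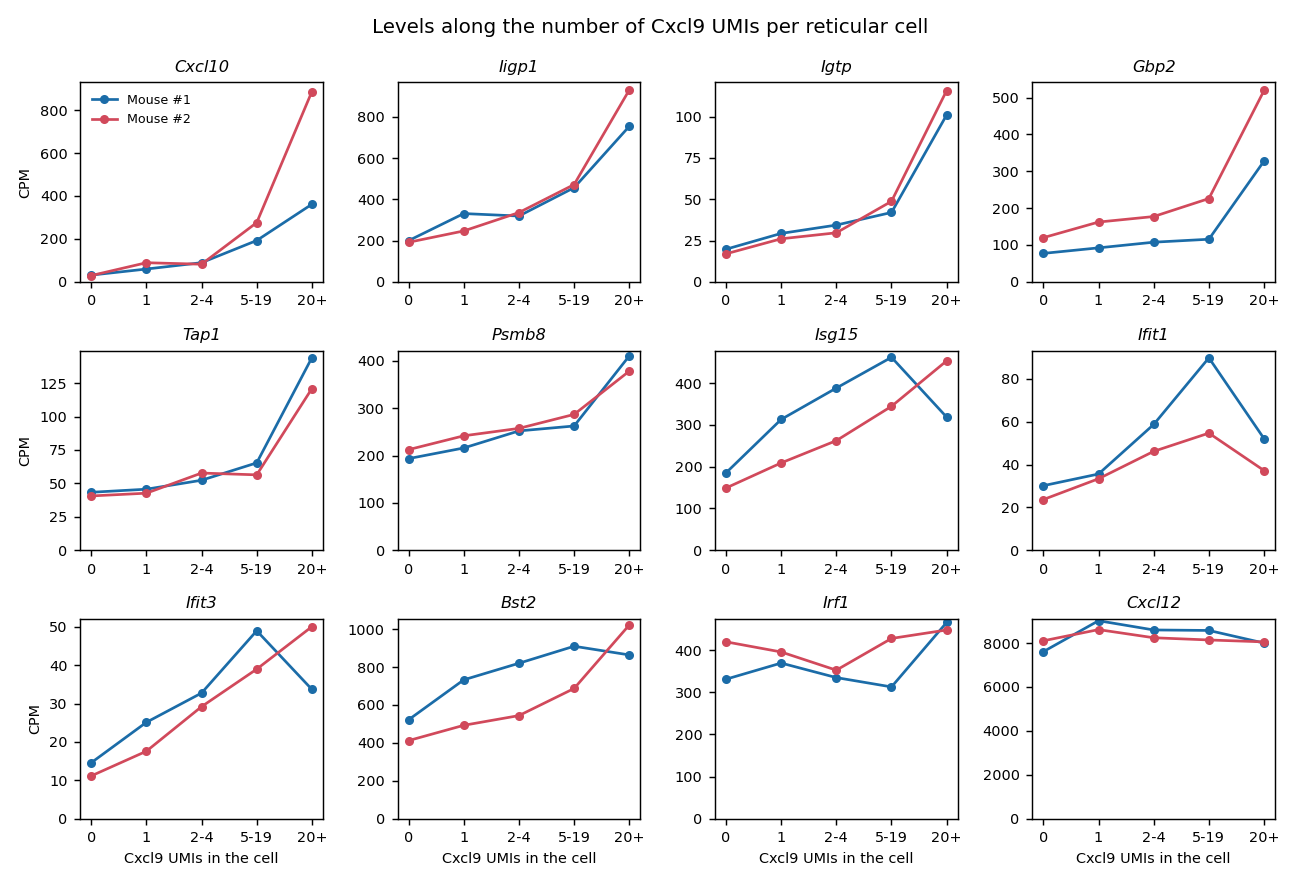
CPM of 12 genes in summed reticular cells with 0, 1, 2 to 4, 5 to 19 and 20 or more Cxcl9 UMIs (1134, 167, 154, 53 and 19 cells of Mouse #1 and 1893, 452, 277, 157 and 80 of Mouse #2). Cxcl10, Iigp1, Igtp, Gbp2, Tap1 and Psmb8 are highest in the top bin of both mice, Ifit1 peaks at 5 to 19 UMIs, and Cxcl12 stays between 7609 and 9019 CPM.

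Within Cxcl9-expressing cells, those with 20 or more UMIs were therefore tested against those with 2 to 19, a comparison added after these levels were seen. With the block, 80 of 10276 genes were higher (0.779%) and 23 lower (0.224%), 103 in all (1.0%). Of 12 GTPases, 6 rose further, namely Igtp (1.57), Gbp2 (1.46), Iigp1 (1.16), Gbp5 (1.02), Irgm2 (1.01) and Ifi47 (0.95), with a list median of 0.98. Of 19 class I genes 5 rose, Nlrc5 (1.63), Tap1 (1.17), Psmb9 (1.00), Psmb10 (0.67) and H2-T23 (0.65). Cxcl10 (2.14) and Irf8 (1.67), a transcription factor induced by interferon-gamma, rose too. Of 22 antiviral genes 1 rose, Irf7 (1.03), with a list median of 0.36, while Isg15 (0.18, adjusted p 0.996) and Ifit1 (-0.41, 0.868) were not called. Whether the lists differ from each other in this was not tested. Without the block this comparison called only Hbb-bs and Hbb-bt, both lower (0.0195%), and 637 genes at an unadjusted p under 0.05. The top 5 of all Cxcl9-expressing cells held 94.5% and 85.6% of their Hbb-bs UMIs in Mouse #1 and Mouse #2.

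Other genes moved in the top cells as well. Of 14 cell cycle genes, 10 rose there with the block, among them Cdk1 (3.12) and Top2a (2.57), but 1 cell held 59.6% of the Top2a UMIs of all Cxcl9-expressing cells in Mouse #1. Car1 (5.12) and Ly6a (1.24) rose, while 6 neutrophil and erythroid markers, Lyz2 and Lcn2 fell, as did Ibsp (-0.80), Atf3 (-0.75) and Ptn (-0.63). Some of these rest on single cells. Among all Cxcl9-expressing cells of Mouse #2, the top cell of each gene held 88.9% of Car1, 79.8% of Lyz2 and 84.4% of Lcn2 UMIs. Car1 had 2 UMIs in the top cells of Mouse #1. tdTomato had -0.51 (adjusted p 0.15).

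Set against Cxcl9-zero cells, the cells with 20 or more UMIs gave calls even without the block. These were Igtp (2.59, edgeR adjusted p 0.018), Iigp1 (2.10, 0.035) and Tap1 (1.61, 0.047), 3 of 12256 tested genes (0.0245%), while 949 had an unadjusted p under 0.05. Keeping the mouse as a block, 184 were higher (1.5%) and 104 lower (0.849%), 288 in all (2.35%), and 12 of 13 GTPases, 9 of 23 antiviral and 15 of 19 class I genes were among the higher ones. In that fit tdTomato fell (-0.52 ± 0.14, edgeR adjusted p 0.017), from 729 to 404 CPM in Mouse #1 and from 1033 to 890 CPM in Mouse #2. They are named after their values were seen, and rest on 33 and 162 UMIs of Igtp, 246 and 1300 of Iigp1 and 47 and 169 of Tap1 in the top cells of Mouse #1 and Mouse #2. At the other end, reticular cells with exactly 1 Cxcl9 UMI already differed from Cxcl9-zero cells with the block in 4 genes higher of 12543 (0.0319%), Cxcl10 (1.36, edgeR adjusted p 0.0064), Isg15 (0.63, 0.017), Cxcl1 (0.52, 0.021) and Mnda (0.53, 0.022). A further 60 genes were lower (0.478%), 64 in all (0.51%). Without the block these cells gave 4 calls, none of them among the genes just named: Hba-a1, Hba-a2, Hbb-bs and Hbb-bt, all lower (-3.00 to -3.30). Few of the compared cells carried most of this RNA. In Cxcl9-zero cells the top 5 held 89.1% and 78.9% of Hbb-bs and 92.0% and 74.1% of Hba-a1 UMIs.

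The promoter windows of the genes that rose were searched with the same motifs. Of the 87 genes called higher, 61 had a RefSeq window under their symbol, of which 32.8% held an ISRE and 18.0% a GAS match. Among 53 of the 77 genes called lower both shares were 7.55%, and among 9464 tested genes they were 3.19% and 7.12%. The genes were picked by their calls, so these shares carry no test.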

How the data were processed

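The authors deposited raw UMI counts per gene and barcode for each library, made with Cell Ranger 3.0.0 (per the file headers) on mm10 with reporter sequences added, and no comparison columns. Both mice form 1 group, so counts were summed per mouse over Cxcl9-expressing and Cxcl9-zero reticular cells (4 sums), CPM were computed from the sums, and edgeR 4.0.16 in R 4.3.3 was used with TMM, filterByExpr and quasi-likelihood tests, without the mouse in the planned design. DESeq2 1.42.0 was the alternative tool. The sums of a pair came from 1 animal, and their deviations from the class means correlated (r = 0.365 over 12710 genes), so the fit with the mouse as a block is shown throughout. P-values rest on 2 mice. With the block they do not measure the spread between mice, since the error of a gene is mostly borrowed from other genes. Intervals and floors (3 UMIs) cover counting error only. The script was tested on simulated data. The members and the 21 gene lists were chosen with earlier results of these data known. Named genes were the 15 with the largest rise and the 8 with the largest fall among genes called in the same direction in both mice, with at least 10 UMIs seen (or, for lower genes, predicted from Cxcl9-zero cells) in each member sum; the planned fit gave 0 eligible genes, so the block fit was used. Of 263 list genes 258 were found and 221 tested, while Cxcl11, Mx2 and Trac were not analysed here. Close gene copies may share reads. Scrublet in scanpy 1.11.5 marked 6 and 3 cells (0.218% and 0.0655%), too few to count as a working call, so the highest scores (60 and 168 cells) were left out as an alternative instead. Free RNA was not removed. One gene of the signalling list is not reported here.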

Additional observations from a re-analysis of the deposited data

How the results depend on the processing

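Without the mouse in the fit, 0 genes were called in the planned comparison, and also with library totals in place of TMM, with at least 1 Cxcl9 UMI, with 5 or 1 depth-nearest Cxcl9-zero cells, with the stricter cell filter and without cells of other markers or of high Scrublet scores. The replicate block gave 164 calls, DESeq2 44, no filter on low counts 141 and at least 3 Cxcl9 UMIs 1, Hbb-bs. Alternatives chosen after seeing the data gave 3 calls at 20 or more UMIs (Igtp, Iigp1 and Tap1, higher) and 4 at exactly 1 UMI (Hba-a1, Hba-a2, Hbb-bs and Hbb-bt, lower). With the replicate block added they gave 271 with 1 depth-nearest cell, 482 without cells of other markers, 162 without high Scrublet scores, 288 at 20 or more UMIs and 64 at exactly 1 UMI, and 103 in place of 2 for 20 or more against 2 to 19 UMIs. The cause of these differences was not tested. The planned 5 nearest cells used nearly all Cxcl9-zero cells. The share of Cxcl9-expressing cells was 29.8% from 1 UMI, 10.97% from 3 and 2.02% from 20, and leaving out either mouse gave 14.8 to 18.0%. With 1 mouse left no test of genes is possible. Of 437 values of named genes 18 reversed, all of Cldn13, Rhd and Ctse. At exactly 1 UMI they had -2.06, -3.66 and -2.44 (with the replicate block -2.22, -3.77 and -2.54), without cells of other markers -3.77, -2.39 and -5.20 (-3.83, -2.29 and -5.12), and without high Scrublet scores -0.65, -0.077 and -0.53 (-0.76, -0.29 and -0.67).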
